A study of Mus musculus with 47 samples.

Results

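The comparison described here set liver RNA of CAST/EiJ mice against liver RNA of C57BL/6J mice, all on a control diet with 10% fat and added fiber. It was made from the 15 libraries whose titles name that diet and one of these strains, of 47 libraries in the series. C57BL/6J was represented by 8 libraries (4 coded F and 4 coded M) and CAST/EiJ by 7 (4 coded F and 3 coded M), with the sex code as a covariate. All mice were wild type by their labels, without treatment, were put on the diet at 6 weeks of age and gave tissue at 15 weeks. The study set 3 inbred strains on this diet or on a diet with 44% fat, to ask how genetic background changes the response to diet. NZO/HlLtJ libraries were not used here, and the 44% fat libraries of the 2 strains appear only in the last paragraphs. The labels do not say that each library came from a separate animal, and the p-values reflect only how far libraries of a group vary.

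CAST/EiJ is a wild-derived inbred strain of the castaneus subspecies of the house mouse, while C57BL/6J is a laboratory strain of mostly domesticus descent and the source of the mouse reference genome. The liver carries several programmes in which inbred mice are known to differ. Interferons switch on antiviral genes through their receptors, and interferon gamma drives the immunity-related GTPases (IRG) and guanylate-binding proteins (GBP) that attack the vacuoles of intracellular parasites. Hepatocytes turn cholesterol into bile acids, amino acid nitrogen into urea and fatty acids into ketone bodies, and secrete plasma and urinary proteins. Many of these genes also follow the circadian clock and the sex-specific pattern of growth hormone.

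Libraries held 36628076 to 46605770 counts in C57BL/6J and 30585816 to 41029486 in CAST/EiJ. Xist and the Y-linked genes Uty and Kdm5d matched every sex label. As scaled counts (CPM, which relate each count to the size of its library), the sum over 12 hepatocyte markers ran from 108200 to 146800 in C57BL/6J and from 90690 to 166900 in CAST/EiJ, with overlapping ranges. Transcripts of pancreatic acinar cells stood out in 2 C57BL/6J M libraries: Cpa1, a pancreatic carboxypeptidase, was at 41.6 CPM in replicate 2 and 74.5 CPM in replicate 3, with at most 9.29 CPM in any other library. Replicate numbers used here are not from the labels and follow the order of library identifiers within each group. Clock genes also differed between the strains, as given below. The sources used here give neither the aligner nor the genome to which CAST/EiJ reads were compared, so how far sequence differences from the reference lowered CAST/EiJ counts was not tested.

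Of 20320 genes in the table, 15650 passed the filter on low counts, and 8493 of them (54.3%) differed between the strains at an adjusted p under 0.05. In CAST/EiJ 4297 genes (27.5% of those tested) were higher and 4196 (26.8%) were lower. The median size of a called difference was 0.699 on the log2 scale, and 3012 called genes differed at least 2-fold, 1336 of them higher and 1676 lower. At least 10-fold differences were found for 299 higher and 332 lower genes. For 3371 genes (21.5%) the 7 CAST/EiJ and 8 C57BL/6J values did not overlap. The libraries fall into 3 runs of consecutive identifiers, each with both strains, and 8318 of the called genes had the same sign in all of them (97.9%, beside 71.7% of all tested genes). The sign was the same in F and in M libraries for 8438 called genes (99.4%), and the share over all tested genes was not computed. The called genes were picked from these same libraries, so agreement between runs or sexes is not an independent check.

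Genes that were near 0 in one strain lay on both sides, but the table limits what can be seen. In every CAST/EiJ library 30 genes were under 0.1 CPM while every C57BL/6J library had at least 1 CPM, and 22 genes showed the reverse. Leaving out predicted genes and pseudogenes by name, these counts were 18 and 5. The deposited table holds only genes with counts in at least 24 of the 47 libraries, and the series has 15 CAST/EiJ libraries, so a gene expressed in that strain alone could not be in it.

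**Figure D1:**
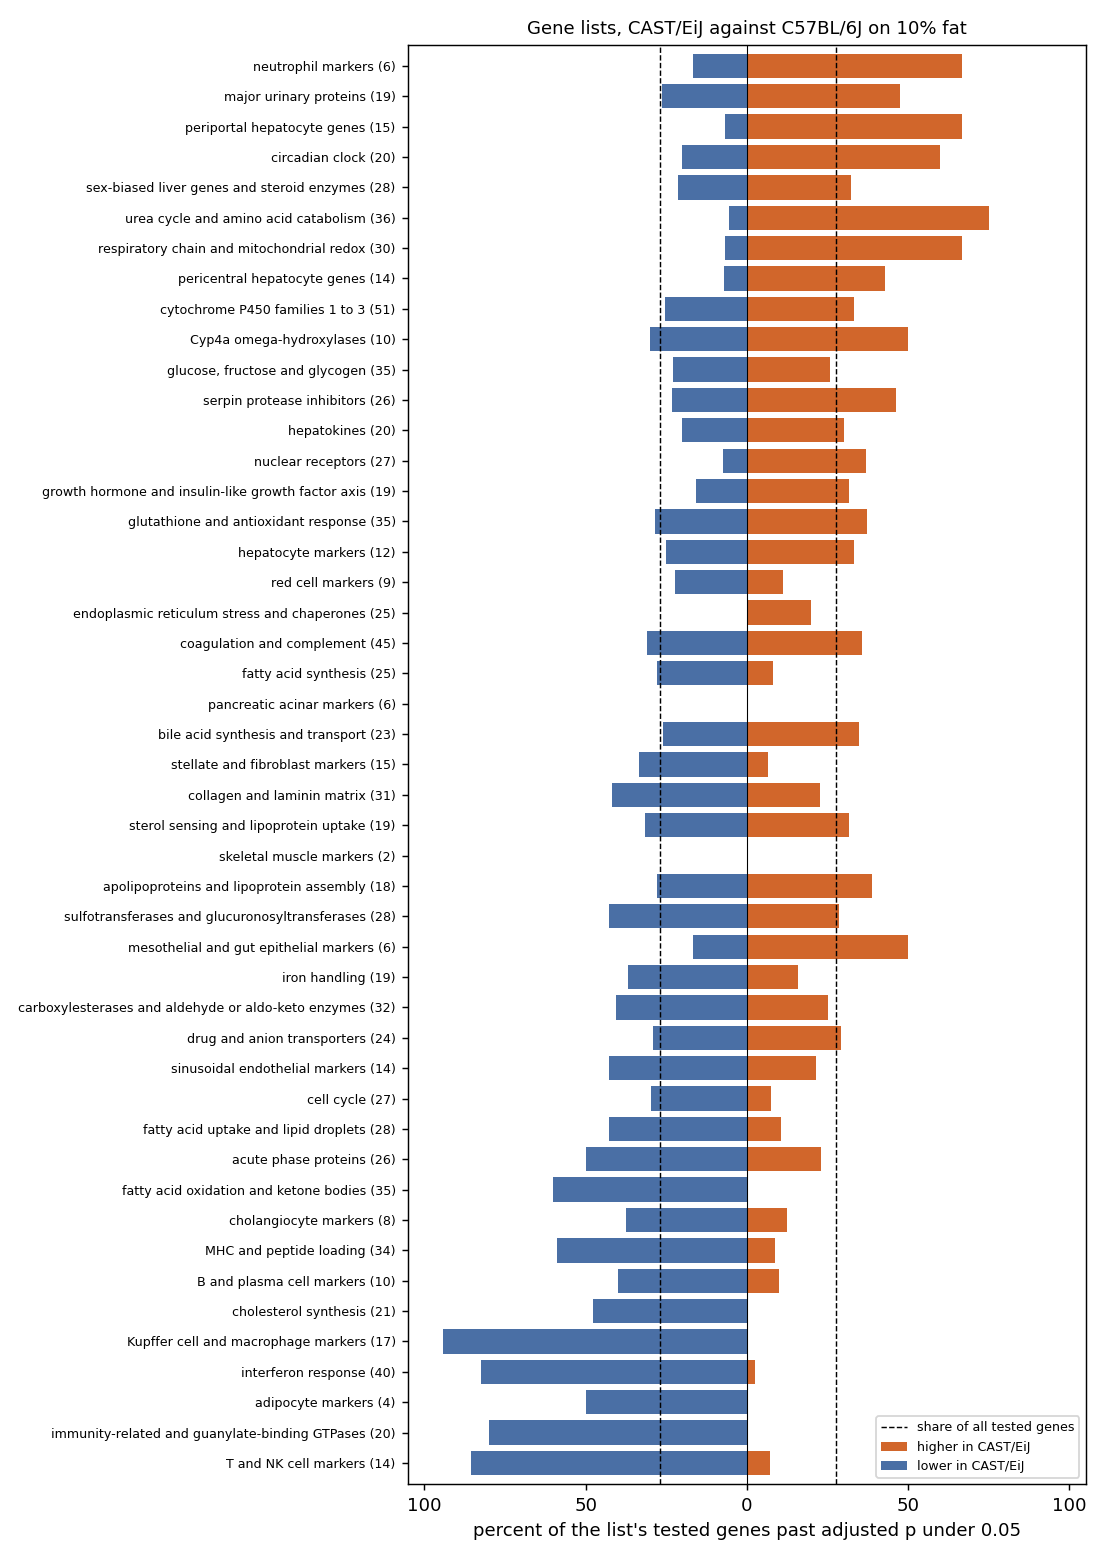
Share of each gene list past the threshold, to the right for genes higher in CAST/EiJ and to the left for genes lower, with the number of genes tested in parentheses and dashed lines at the shares over all tested genes (27.5% and 26.8%). Lists are ordered by their median log2 fold change. Interferon, GTPase, Kupffer cell and T and NK cell lists lie at the bottom, and urea cycle, respiratory chain and periportal lists near the top.

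Genes of the interferon response were lower in CAST/EiJ. Of 40 tested members of a list of interferon-stimulated genes, 33 were lower, 1 was higher and 6 did not pass the test, with a median log2 fold change of -1.25 beside -0.0048 over all tested genes. For 20 of the 40 the values of the strains did not overlap, beside 21.5% of all tested genes. Of 20 tested IRG and GBP genes, 16 were lower and 0 higher, with a median of -1.74, and 11 did not overlap. Both lists were written with earlier results of these data known. In libraries of whole liver, fewer cells of a type and less RNA per cell cannot be told apart.

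Many interferon-stimulated genes carry an interferon-stimulated response element near their start. Its core, read here as GAAA, any 2 bases and GAAA again, was searched on both strands in RefSeq promoters (GRCm38.p6, 250 bases before to 50 bases after the start). It was present for 1079 of 27025 genes with a promoter in the table (3.99%). Of the 49 members of both lists that were lower in CAST/EiJ, 32 had a promoter there and 23 of these held the motif (71.9%). Of the 10 members that did not pass the test, 7 had a promoter and 6 held it (85.7%). The reference sequence is that of C57BL/6J, and the CAST/EiJ sequence was not analysed here. Shown are 3 genes that were lower in CAST/EiJ and Irgm1, which did not pass the test, with the motif in capitals where overlapping matches run together. Their windows are chr4:156200769-156201068 on the minus strand for Isg15, chr19:34583279-34583578 on the plus strand for Ifit3, chr3:142530086-142530385 on the plus strand for Gbp7 and chr11:48871371-48871670 on the minus strand for Irgm1.
Isg15: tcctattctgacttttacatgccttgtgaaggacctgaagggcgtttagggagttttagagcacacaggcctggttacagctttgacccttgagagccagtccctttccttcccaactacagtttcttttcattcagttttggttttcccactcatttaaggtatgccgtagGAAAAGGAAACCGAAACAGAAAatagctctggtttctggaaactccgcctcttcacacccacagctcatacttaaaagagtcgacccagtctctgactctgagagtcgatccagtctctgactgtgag
Ifit3: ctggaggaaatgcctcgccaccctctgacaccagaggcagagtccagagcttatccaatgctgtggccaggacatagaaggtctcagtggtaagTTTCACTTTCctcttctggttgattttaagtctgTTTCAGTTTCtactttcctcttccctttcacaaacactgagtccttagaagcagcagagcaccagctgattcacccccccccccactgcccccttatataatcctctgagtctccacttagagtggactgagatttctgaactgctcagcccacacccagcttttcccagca
Gbp7: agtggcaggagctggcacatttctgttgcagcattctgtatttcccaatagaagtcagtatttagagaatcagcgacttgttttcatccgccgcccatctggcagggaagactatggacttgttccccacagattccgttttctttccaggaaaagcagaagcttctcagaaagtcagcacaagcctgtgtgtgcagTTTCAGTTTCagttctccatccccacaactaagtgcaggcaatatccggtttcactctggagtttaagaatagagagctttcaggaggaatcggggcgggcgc
Irgm1: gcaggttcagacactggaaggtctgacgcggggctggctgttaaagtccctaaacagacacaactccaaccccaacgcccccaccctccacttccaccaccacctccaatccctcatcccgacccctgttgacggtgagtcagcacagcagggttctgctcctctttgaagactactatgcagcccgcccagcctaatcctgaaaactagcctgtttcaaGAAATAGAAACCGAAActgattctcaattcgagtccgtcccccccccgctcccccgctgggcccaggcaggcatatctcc
A match is a description of these letters and does not show that a factor binds there. The motif thus stood in most listed genes whether or not they differed between the strains.

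Irf7 (chromosome 7, 141262706 to 141266481), the transcription factor that amplifies type I interferon production, had a lowest, median and highest value of 20.4, 29.1 and 48.5 CPM in C57BL/6J and of 1.78, 2.48 and 4.86 CPM in CAST/EiJ. The log2 fold change, CAST/EiJ minus C57BL/6J, was -3.61 ± 0.25 (SE, adjusted p = 1.57e-08), a 12.2-fold lower level. No value of one strain reached the range of the other. Isg15 (chromosome 4, 156199424 to 156200818), a ubiquitin-like protein that is attached to other proteins, was at 2.26, 4.38 and 8.27 CPM in C57BL/6J and at 0.484, 0.848 and 1.14 CPM in CAST/EiJ. It was 6.11-fold lower, with a log2 fold change of -2.61 ± 0.24 (adjusted p = 1.15e-07) and no overlap. Usp18, the protease that removes Isg15 from its targets, was lower by nearly the same factor, 6.50-fold (-2.70 ± 0.26, adjusted p = 3.32e-07). Ifit3, which binds viral RNA complexes, was 6.08-fold lower (-2.60 ± 0.20, adjusted p = 1.26e-08), from 6.58 to 21.7 CPM in C57BL/6J and from 1.29 to 3.06 CPM in CAST/EiJ. Ifi44 was 32.1-fold lower (-5.00 ± 0.34), from 2.23 to 8.43 CPM against 0.0297 to 0.228 CPM. Among these effector genes the strains were fully separated.

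Of the list, 6 members did not pass the test. The signalling factor Stat2 had a log2 fold change of 0.27 ± 0.11 and did not pass the test (adjusted p = 0.0553). The RNA sensor kinase gene Eif2ak2 (-0.15 ± 0.11) and the tethering factor Bst2 (-0.27 ± 0.13) did not pass it either, with adjusted p of 0.25 and 0.103.

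Mx2 (chromosome 16, 97535308 to 97560900), an antiviral dynamin-like GTPase, was the 1 member that was higher in CAST/EiJ. It ran from 2.54 to 6.77 CPM with a median of 5.40 CPM in C57BL/6J, and from 25.9 to 58.1 CPM with a median of 42.9 CPM in CAST/EiJ. The 9.02-fold difference (3.17 ± 0.26, adjusted p = 1.51e-07) ran against the rest of the list and showed no overlap. Its neighbour Mx1, known to be defective in many laboratory strains, stood at medians of 1.36 and 1.84 CPM and did not pass the test (0.35 ± 0.23, adjusted p = 0.213). Oas1b, a flavivirus resistance gene with a truncated allele in many laboratory strains, was near the threshold (-0.48 ± 0.19, adjusted p = 0.0469). It lost the call in 11 of the 15 fits that left out a library.

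Iigp1 (chromosome 18, 60376029 to 60392627), an interferon-inducible IRG effector, showed one of the largest contrasts. C57BL/6J libraries ran from 246.7 to 394.7 CPM with a median of 338.9 CPM. All CAST/EiJ libraries together held 2 counts of it, against 112551 in C57BL/6J, and the highest CAST/EiJ value was 0.0326 CPM. The ratio of the pooled levels was 40212, with an exact 95% Poisson interval of 11132 to 332050 that covers the counting error of the few counts only. Gbp10 was between 7.02 and 27.4 CPM in C57BL/6J and at most 0.0891 CPM in CAST/EiJ, where 5 counts were found in all. Tgtp2 was 104-fold lower while its near-identical copy Tgtp1 did not pass the test (0.16 ± 0.28, adjusted p = 0.655), so how reads were split between the copies leaves both uncertain. The IRG regulator Irgm1 was at medians of 49.9 and 49.2 CPM and did not pass the test (-0.14 ± 0.15, adjusted p = 0.447). Its relatives Igtp and Irgm2, whose annotated spans overlap each other on chromosome 11, were 3.42-fold and 3.24-fold lower (adjusted p = 4.05e-07 and 3.15e-07). Gbp7 was 4.70-fold lower (-2.23 ± 0.19, adjusted p = 5.85e-08), with 8.45 to 34.7 CPM against 2.93 to 5.68 CPM.

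**Figure D2:**
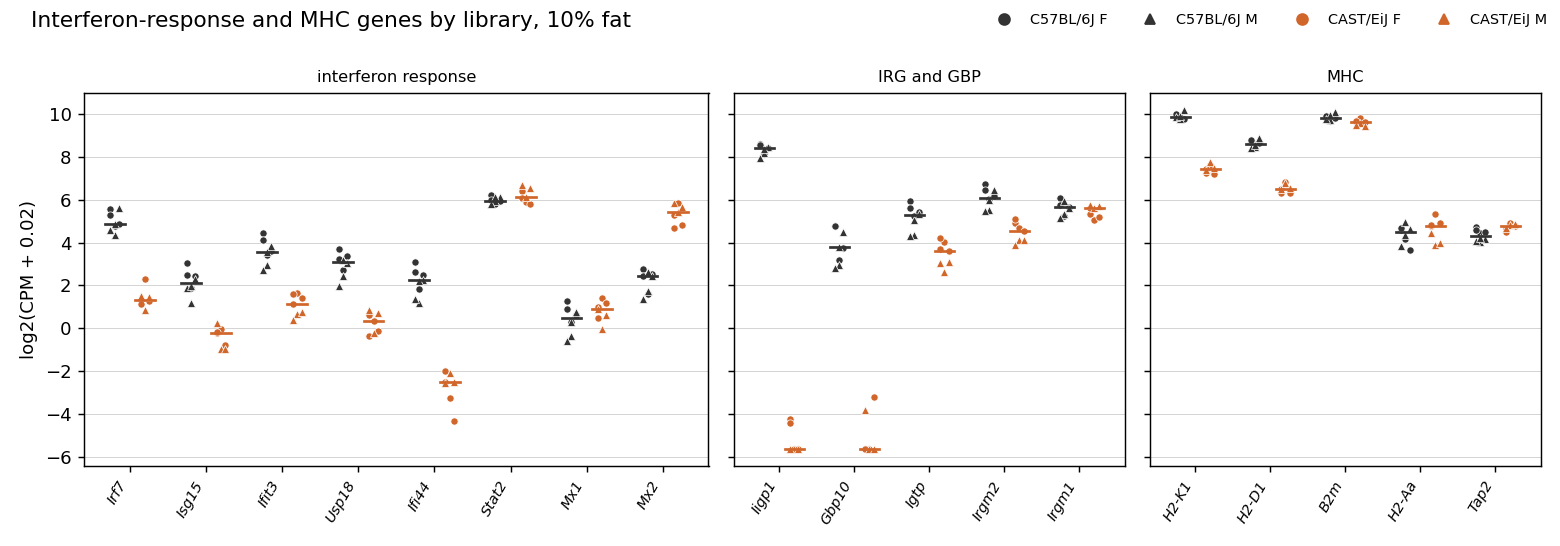
Level of interferon-response, GTPase and MHC genes in each of the 15 libraries as log2 of CPM plus 0.02, with circles for F, triangles for M and a bar at each strain's median. CAST/EiJ libraries lie below all C57BL/6J libraries for Irf7, Isg15, Ifit3, Usp18, Ifi44, Iigp1, Gbp10, H2-K1 and H2-D1, above them for Mx2, and among them for Irgm1, Mx1 and H2-Aa.

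Most tested genes of the major histocompatibility complex (MHC) were lower in CAST/EiJ, among them both classical class I heavy chains, with exceptions in either class. Of 34 tested genes of MHC and peptide loading, 20 were lower, 3 were higher and 11 did not pass the test, with a median of -0.46. The share called was 67.6%, beside 54.3% of all tested genes. H2-K1 (chromosome 17, 33996017 to 34000333), a classical class I heavy chain, was at 883 to 1180 CPM with a median of 927 CPM in C57BL/6J and at 146 to 214 CPM with a median of 174 CPM in CAST/EiJ. It was 5.44-fold lower (-2.44 ± 0.09, adjusted p = 1.14e-12). H2-D1, the other classical heavy chain of C57BL/6J, was 4.24-fold lower (-2.09 ± 0.10). Of the nonclassical genes H2-T22 was 8.51-fold lower (-3.09 ± 0.09), H2-Q7 10.6-fold lower (-3.41 ± 0.19) and H2-T10 4.44-fold higher (2.15 ± 0.14), each without overlap. These genes are highly polymorphic and have many close copies, so reads of another haplotype may be counted elsewhere or not at all, and the part of this in the difference was not tested.

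Other genes of class I presentation differed by unlike amounts. B2m, the invariant light chain of class I molecules, was lower by 0.25 ± 0.08 on the log2 scale (adjusted p = 0.0148), with overlapping ranges of 809 to 1115 CPM and 695 to 910 CPM. Nlrc5, the transactivator of class I genes, was 3.11-fold lower (-1.64 ± 0.15, adjusted p = 1.58e-07), with 12.4 to 24.6 CPM in C57BL/6J and 4.40 to 7.77 CPM in CAST/EiJ. The peptide transporter subunits went different ways: Tap1 was lower (-0.76 ± 0.22, adjusted p = 0.00906) and Tap2 higher (0.40 ± 0.09, adjusted p = 0.0016). The class II genes H2-Aa (0.19 ± 0.23, adjusted p = 0.516) and H2-Eb1 (0.33 ± 0.21, adjusted p = 0.193) did not pass the test. H2-Ea-ps, the class II alpha chain gene that is defective in C57BL/6J, held 1 count in that strain and 1869 in CAST/EiJ, where it ran from 4.70 to 12.5 CPM. The ratio was 2616, with an exact 95% Poisson interval of 469 to 103310 for counting error only.

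Markers of resident macrophages and of T and NK cells were also lower in CAST/EiJ. Of 17 tested Kupffer cell and macrophage markers 16 were lower and 0 higher, with a median of -1.24. Their summed level ran from 484 to 819 CPM in C57BL/6J and from 252 to 580 CPM in CAST/EiJ, so the sums overlapped. Adgre1 (chromosome 17, 57358686 to 57483529), which encodes the macrophage antigen F4/80, was at 16.4, 21.9 and 32.3 CPM (lowest, median, highest) in C57BL/6J and at 4.11, 5.74 and 10.99 CPM in CAST/EiJ. The difference was 3.57-fold (-1.84 ± 0.15, adjusted p = 2.85e-08). Csf1r, the receptor for the macrophage growth factor, was 2.57-fold lower (-1.36 ± 0.11) and Timd4, a receptor for dying cells on Kupffer cells, 2.63-fold lower (-1.40 ± 0.16), both without overlap. Differences were smaller for the Kupffer cell lectin Clec4f (-0.64 ± 0.11, adjusted p = 8.89e-05) and the secreted scavenger protein Cd5l (-0.56 ± 0.17, adjusted p = 0.0117), and both overlapped. Folr2, a folate receptor of resident macrophages, fell far outside this range at 42.0-fold lower, with 6.87 to 11.5 CPM against 0.0594 to 0.554 CPM. The markers of 1 cell type thus differed by unlike factors, and the number of Kupffer cells was not measured.

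Of 14 tested T and NK cell markers 12 were lower and 1 was higher, with a median of -2.24, but all were scarce. In F libraries alone 6 were lower, in M libraries alone 6, and with the clock score 9. Each of these fits also called fewer genes over all than the main fit: 6537, 5700 and 5364 in place of 8493. Il2rb, the interleukin 2 receptor beta chain, was at 0.992, 1.58 and 2.83 CPM in C57BL/6J and at 0.131, 0.225 and 0.653 CPM in CAST/EiJ (-2.58 ± 0.27, adjusted p = 5.4e-07). The T cell receptor subunit Cd3e had at most 0.610 CPM in any C57BL/6J library and at most 0.121 CPM in any CAST/EiJ library (-2.80 ± 0.56, adjusted p = 0.000431). Cd4, which macrophages and T helper cells can express, went the other way, with medians of 0.624 and 2.32 CPM (1.93 ± 0.39, adjusted p = 0.000583) and overlapping ranges. Among 6 neutrophil markers 4 were higher and 1 lower in CAST/EiJ, but 2 were higher in F libraries alone, 0 in M libraries alone, 1 with the clock score and 1 of 5 on 44% fat. The higher ones included S100a8 (1.10 ± 0.38, adjusted p = 0.0202), which lost the call without CAST/EiJ F replicate 2 or without CAST/EiJ M replicate 3. B and plasma cell markers gave 4 lower and 1 higher of 10, and sinusoidal endothelial markers 6 lower and 3 higher of 14. These shares, 50% and 64.3% called, lie near the 54.3% of all tested genes. The interferon-stimulated genes above are expressed in hepatocytes and in these immune cells, and which cells carry the difference was not tested.

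Circadian clock genes differed between the strains. Of 20 tested clock genes 12 were higher and 4 lower in CAST/EiJ (80% called, beside 54.3% of all tested genes). The counts were 12 and 4 in F libraries alone and 3 and 1 in M libraries alone, and the time of tissue collection is not in the labels. Over all tested genes 6537 and 5700 were called in these fits, in place of 8493. A test of whether the strain difference differed between the sexes passed for 0 of the 20. Dbp (chromosome 7, 45705247 to 45710203), a clock-controlled factor with a steep daily rhythm, was between 0.735 and 2.24 CPM in 6 of 8 C57BL/6J libraries, at 7.48 CPM in M replicate 4 and at 32.5 CPM in M replicate 1. In CAST/EiJ it ran from 14.2 to 69.5 CPM with a median of 39.5 CPM (3.37 ± 1.06, adjusted p = 0.0164). The period gene Per2 was 4.53-fold higher in CAST/EiJ (2.18 ± 0.28, adjusted p = 1.7e-05), with 5.87 to 20.7 CPM against 28.8 to 61.0 CPM. Usp2, a rhythmic deubiquitinase, was 6.88-fold higher (2.78 ± 0.34) and Ciart, a clock repressor, 9.87-fold higher (3.30 ± 0.70), both without overlap. Arntl (Bmal1), the activator that peaks in antiphase to Dbp, was lower, with medians of 25.4 CPM and 9.95 CPM (-0.95 ± 0.30, adjusted p = 0.0166). Since collection time may have differed, strain and time of day cannot be told apart here.

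A clock score was therefore used as a covariate in an added fit, as the mean of standardized Dbp and Ciart levels minus Arntl and Npas2 levels. It ran from -1.08 to 0.801 in C57BL/6J and from -0.123 to 1.51 in CAST/EiJ. The scores of the 3 CAST/EiJ M libraries (0.682, -0.123 and 0.286) lay within the range of the 4 C57BL/6J M libraries (-1.02 to 0.801), while F libraries did not overlap. Dbp, Ciart and Arntl themselves differed between the strains in these libraries, so the score partly follows strain. A call kept or lost with it therefore does not separate strain from time of day. With the score as a covariate 5364 genes were called in place of 8493. The interferon list then held 22 lower genes in place of 33, the GTPase list 15 in place of 16 and the Kupffer cell list 13 in place of 16. In M libraries alone these counts were 24, 15 and 16, with 5700 genes called over all. Irf7 had a log2 fold change of -3.37 with the score (adjusted p = 1.06e-05).

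**Figure D3:**
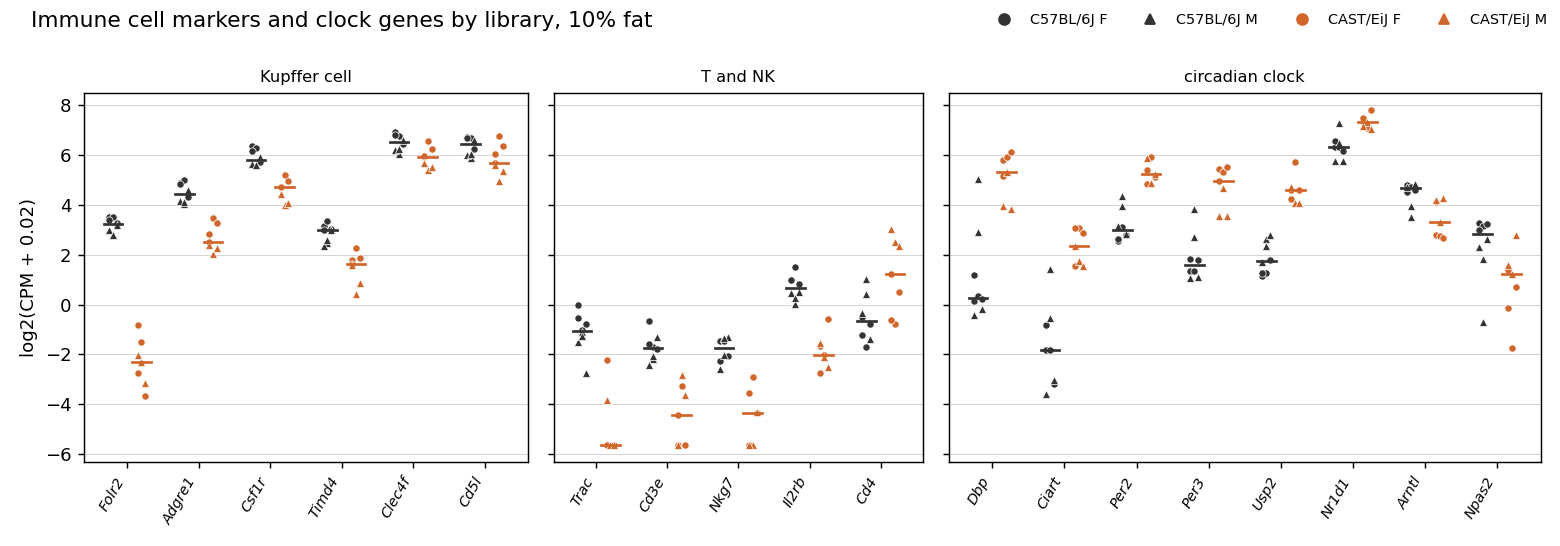
Level of macrophage, T and NK cell and clock genes in each library as log2 of CPM plus 0.02, with circles for F, triangles for M and a bar at each strain's median. Per2 and Usp2 separate the strains, while 2 C57BL/6J M libraries reach toward the CAST/EiJ values of Dbp and Per3.

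Enzymes of amino acid breakdown and of the urea cycle were mostly higher in CAST/EiJ. Of 36 tested genes 27 were higher, 2 were lower and 7 did not pass the test, with a median of 0.58. Bckdhb (chromosome 9, 83925145 to 84124240), a subunit of the enzyme that commits branched-chain amino acids to oxidation, was at 36.4, 39.0 and 47.8 CPM in C57BL/6J and at 109.6, 138.1 and 155.1 CPM in CAST/EiJ. It was 3.43-fold higher (1.78 ± 0.07, adjusted p = 2.69e-12) with no overlap. The partner subunit Bckdha did not pass the test (0.07 ± 0.07, adjusted p = 0.417). Slc25a15, the mitochondrial ornithine carrier, was 2.50-fold higher (1.32 ± 0.10), and Cth, which makes cysteine from cystathionine, 3.23-fold higher (1.69 ± 0.17), both fully separated.

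Within the urea cycle Cps1 (chromosome 1, 67123026 to 67231259), its entry enzyme, ran from 3351 to 5120 CPM in C57BL/6J and from 5298 to 11254 CPM in CAST/EiJ, 1.88-fold higher (0.91 ± 0.13, adjusted p = 2.22e-05). Asl was 2.00-fold, Arg1 1.63-fold, Ass1 1.54-fold and Otc 1.40-fold higher. Agxt, which detoxifies glyoxylate (-0.98 ± 0.16), and Fah, the last enzyme of tyrosine breakdown (-0.49 ± 0.08), were the 2 that were lower. The count of higher genes dropped to 14 with the clock score and was 14 in M libraries alone. Over all tested genes the count of higher ones fell too, from 4297 to 2754 with the score and to 2804 in M libraries alone. Cps1 kept a log2 fold change of 0.45 with the score (adjusted p = 0.038). Of 15 periportal hepatocyte genes, several of them in this pathway, 10 were higher and 1 was lower.

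Fatty acid oxidation went the other way. Of 35 tested genes of oxidation and ketone bodies 21 were lower in CAST/EiJ, 0 were higher and 14 did not pass the test, with a median of -0.38. The share called was 60%, beside 54.3% of all tested genes. Decr1, needed for polyunsaturated fatty acids, was 2.00-fold lower (adjusted p = 1.61e-07), with 131 to 209 CPM against 72.5 to 97.1 CPM. Crat, the carnitine acetyltransferase, was 3.28-fold lower (-1.71 ± 0.27, adjusted p = 0.000101). Fgf21 (chromosome 7, 45613907 to 45615490), a fasting hormone of the liver, was at 3.91, 8.33 and 15.5 CPM in C57BL/6J and at 0.124, 0.920 and 1.57 CPM in CAST/EiJ, which was 11.7-fold lower (-3.55 ± 0.56, adjusted p = 0.000106). The entry enzyme Cpt1a (-0.06 ± 0.16) and the regulator Ppara (-0.19 ± 0.22) did not pass the test, with adjusted p of 0.781 and 0.495. With the clock score 17 genes of the list were lower, and 20 in M libraries alone. Over all tested genes the count of lower ones fell from 4196 to 2610 and to 2896.

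Cholesterol synthesis was lower in part. Of 21 tested enzymes 10 were lower, 0 were higher and 11 did not pass the test, with a median of -0.60. That is 47.6% called, beside 54.3% of all tested genes. Pmvk (chromosome 3, 89454541 to 89469013), an early enzyme of the mevalonate pathway, was at 26.7, 36.2 and 44.8 CPM in C57BL/6J and at 3.99, 6.65 and 17.7 CPM in CAST/EiJ (-2.21 ± 0.29, adjusted p = 2.26e-05). Cyp51 was 3.43-fold lower (-1.78 ± 0.21), Fdps 3.50-fold (-1.81 ± 0.32) and Hmgcs1 2.50-fold (-1.32 ± 0.22). Sqle, the squalene epoxidase, did not pass the test (-0.78 ± 0.44, adjusted p = 0.147). The list held 14 lower genes in F libraries alone, 4 in M libraries alone and 6 with the clock score. Over all tested genes the lower ones numbered 3306, 2896 and 2610 in these fits, in place of 4196.

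Fatty acid synthesis showed no common direction: 7 of 25 tested genes were lower, 2 were higher and 16 did not pass the test. Only 36% was called, beside 54.3% of all tested genes. Scd1, the main desaturase, was 2.53-fold lower (-1.34 ± 0.35, adjusted p = 0.00511) and Me1, a source of NADPH, 2.43-fold lower (-1.28 ± 0.25). Fasn, the synthase itself, stood at medians of 1155 and 1449 CPM (0.00 ± 0.34, adjusted p = 0.994). Thrsp, a thyroid-responsive lipogenic protein, was 7.51-fold higher (2.91 ± 0.42, adjusted p = 5.89e-05), from 23.1 to 269.8 CPM in C57BL/6J and from 462 to 1438 CPM in CAST/EiJ.

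In bile acid metabolism 2 of the hydroxylases that shape the pathways were higher in CAST/EiJ and 2 transporters were lower. Cyp7a1 (chromosome 4, 6265612 to 6275633), the rate-limiting enzyme of the classic pathway, was at 10.2, 49.0 and 140 CPM in C57BL/6J and at 132, 200 and 520 CPM in CAST/EiJ, with a small overlap (2.17 ± 0.50, adjusted p = 0.00259). It is itself rhythmic, and with the clock score its log2 fold change was 1.49 and not called (adjusted p = 0.211). Cyp7b1 (chromosome 3, 18071950 to 18243338), the oxysterol hydroxylase of the alternative pathway, was 18.0-fold higher (4.17 ± 0.49, adjusted p = 1e-05). Its values ran from 10.1 to 364 CPM with a median of 37.8 CPM in C57BL/6J and from 248 to 1936 CPM with a median of 686 CPM in CAST/EiJ, so the ranges overlapped. With the clock score Cyp7b1 kept a log2 fold change of 2.80 (adjusted p = 0.000126).

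Cyp2c70, which makes the muricholic acids of mice, was 2.76-fold higher (1.46 ± 0.34, adjusted p = 0.00241). Slc10a2, the sodium-dependent bile acid uptake carrier of ileum and bile ducts, was at 3.35, 17.3 and 51.5 CPM in C57BL/6J and at 0.0619, 0.183 and 0.562 CPM in CAST/EiJ (-5.74 ± 0.66, adjusted p = 7.39e-06). Abcc3, a basolateral exporter, was 6.69-fold lower (-2.74 ± 0.24, adjusted p = 2.15e-07). The canalicular pump Abcb11 (-0.04 ± 0.07), the uptake carrier Slc10a1 (-0.01 ± 0.12) and the bile acid receptor Nr1h4 (-0.05 ± 0.12) did not pass the test, with adjusted p of 0.63, 0.952 and 0.716. In the whole list 8 of 23 genes were higher and 6 lower, and 5 and 3 with the clock score. The share called was 60.9%, beside 54.3% of all tested genes.

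Respiratory chain genes were higher by small steps: 20 of 30 tested were higher and 2 lower, with a median of 0.35. Of this list 73.3% was called, beside 54.3% of all tested genes. The count of higher genes was 20 in F libraries alone, 10 in M libraries alone and 14 with the clock score. Over all tested genes that count was 3231, 2804 and 2754, in place of 4297. Atp5b, a subunit of the ATP synthase, was 1.45-fold higher (0.54 ± 0.07, adjusted p = 2.76e-06), with 867 to 1081 CPM against 1305 to 1598 CPM. Of the mitochondrially encoded genes mt-Atp6 (0.93 ± 0.12) and mt-Nd5 (0.84 ± 0.10) were higher without overlap. Of the 2 lower genes, mt-Co2 (mitochondrial genome, 7013 to 7696) ran from 1547 to 2702 CPM in C57BL/6J and from 5.68 to 8.89 CPM in CAST/EiJ (-8.06 ± 0.18, adjusted p = 1.26e-15). It encodes an essential subunit of cytochrome oxidase, and the sum of 14 other mitochondrially encoded genes was 1.37 times as high in CAST/EiJ. Whether reads of the CAST/EiJ allele were placed elsewhere was not tested. Nnt, a mitochondrial NADPH source with a known deletion of exons in C57BL/6J, was 1.47-fold higher in CAST/EiJ (0.56 ± 0.11, adjusted p = 0.000299), and the deposited level per gene does not show the deletion.

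**Figure D4:**
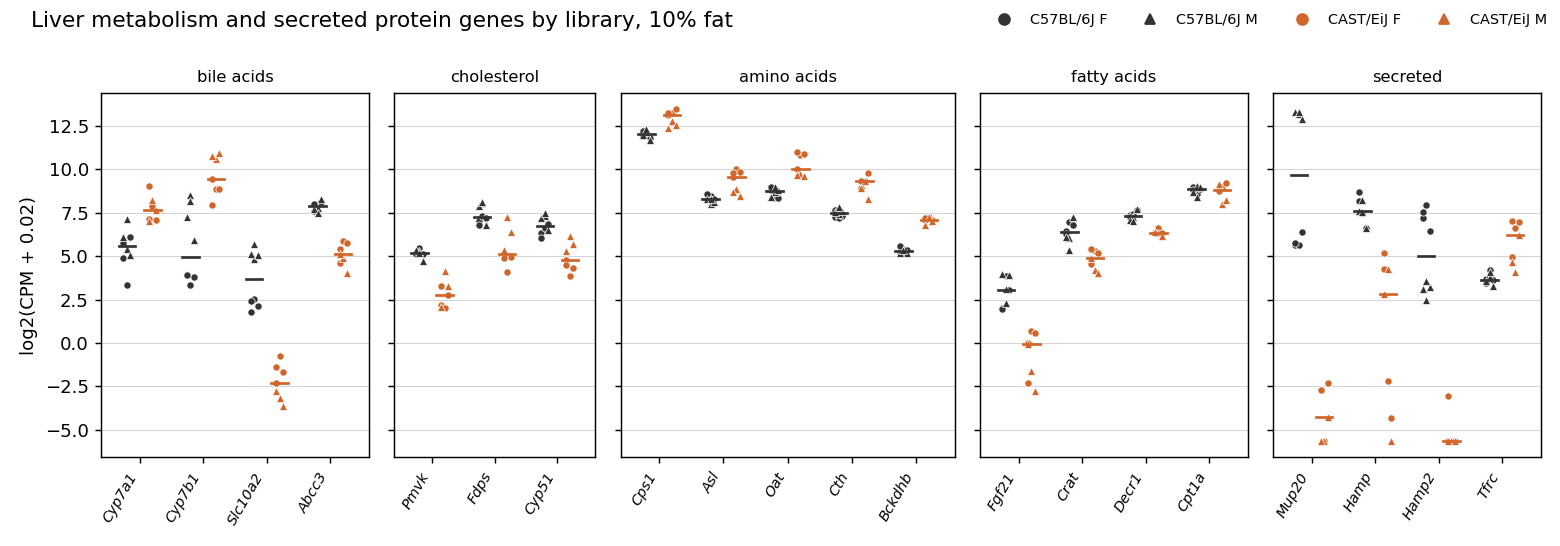
Level of 20 genes of bile acid, cholesterol, amino acid and fatty acid metabolism and of secreted proteins and iron uptake in each library as log2 of CPM plus 0.02, with circles for F, triangles for M and a bar at each strain's median. Bckdhb, Cth, Abcc3 and Slc10a2 separate the strains, Cpt1a does not, and Mup20 divides C57BL/6J by sex.

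Major urinary proteins (Mup), the pheromone carriers that males secrete in large amounts, differed gene by gene. Of 19 tested genes 9 were higher and 5 lower (73.7% called, beside 54.3% of all tested genes). Mup20 (chromosome 4, 62050234 to 62054158), the male signal called darcin, averaged 9320 CPM in C57BL/6J M libraries and 59.3 CPM in F libraries, while all 7 CAST/EiJ libraries together held 16 counts and none exceeded 0.178 CPM. The fitted log2 fold change was -15.14 ± 1.30 (adjusted p = 5.65e-07). Mup17 was higher in CAST/EiJ (5.12 ± 0.87, adjusted p = 0.000268), with a highest value of 29482 CPM against 767 CPM in C57BL/6J. These genes are near-identical copies in a cluster, so single values are uncertain. Summed over the family the mean was 25630 CPM in C57BL/6J M and 58310 CPM in CAST/EiJ M libraries, and 2516 and 4678 CPM in F libraries, given as a description with no test.

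Hepcidin, the hormone that blocks iron export, was far lower in CAST/EiJ. Hamp (chromosome 7, 30942368 to 30944032) was at 97.6, 191 and 409 CPM in C57BL/6J and at 0, 6.94 and 35.6 CPM in CAST/EiJ (-4.31 ± 1.06, adjusted p = 0.00418). Its copy Hamp2 held 3 counts in CAST/EiJ and 29962 in C57BL/6J, a ratio of 7137 with an exact 95% Poisson interval of 2442 to 34606 for counting error only. The sum of both copies ran from 107 to 556 CPM in C57BL/6J and from 0 to 35.7 CPM in CAST/EiJ, without overlap. This sum covers reads split between the 2 copies only, and whether CAST/EiJ reads were lost or counted elsewhere was not tested. The Hamp call was lost in F libraries alone and in identifier run 3 alone. Of 19 tested iron handling genes 7 were lower, 3 were higher and 9 did not pass the test (52.6% called, beside 54.3% of all tested genes). The ligand Bmp6 (-0.66 ± 0.23, adjusted p = 0.0227) and the response gene Id1 (-1.62 ± 0.43, adjusted p = 0.00565) were lower. The inhibitor Tmprss6 was higher (0.35 ± 0.06, adjusted p = 0.000187). Whether these genes bear on the hepcidin difference was not tested. Tfrc, the transferrin receptor, was 4.76-fold higher (2.25 ± 0.41, adjusted p = 0.000411), with medians of 12.5 and 73.3 CPM and a small overlap.

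Acute phase genes moved in both directions, with 13 of 26 tested lower and 6 higher, and 9 and 3 with the clock score. In the main fit 73.1% was called, beside 54.3% of all tested genes. Saa1, a serum amyloid, was 6.43-fold lower (-2.68 ± 0.28, adjusted p = 1.12e-06), with 7.02 to 20.2 CPM against 0.978 to 3.99 CPM. Orm1, an orosomucoid, was 2.21-fold lower (-1.14 ± 0.31, adjusted p = 0.00678), but not called with the clock score (adjusted p = 0.234). Haptoglobin (Hp) was 1.80-fold higher (0.85 ± 0.15), Serpina3n 2.18-fold higher (1.13 ± 0.10) and Fetub, a fetuin, 3.19-fold higher (1.67 ± 0.10), each without overlap. The list thus did not move as 1 group.

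Enzymes that act on steroids and foreign compounds differed in both directions. Of 32 tested carboxylesterases and aldehyde or aldo-keto enzymes 13 were lower and 8 higher, and some single members were far higher in CAST/EiJ. Akr1c18 (chromosome 13, 4132615 to 4150654), a progesterone-reducing enzyme, was at most 0.262 CPM in C57BL/6J and between 127 and 226 CPM in CAST/EiJ (10.36 ± 0.23, adjusted p = 1.04e-14). The carboxylesterase Ces2h was at most 0.238 CPM in C57BL/6J and between 41.5 and 53.0 CPM in CAST/EiJ (8.06 ± 0.17, adjusted p = 4.63e-16). Its relative Ces2b reached 2.46 CPM in C57BL/6J and 225 CPM in CAST/EiJ (8.65 ± 0.65). The sulfotransferase Sult3a1 averaged 38.0 CPM in F and 0.0186 CPM in M libraries of C57BL/6J, and 1706 and 1672 CPM in those of CAST/EiJ. Moxd1, a monooxygenase, was a male gene in CAST/EiJ, with a mean of 1067 CPM in M and 0.380 CPM in F libraries, against 3.10 and 0 CPM in C57BL/6J. Ugt1a10 shares exons with other genes of its cluster, so its value (7.54 ± 0.45) is uncertain. Over 51 tested P450 genes of families 1 to 3, 17 were higher and 13 lower, and over 28 sulfotransferase and glucuronosyltransferase genes 8 were higher and 12 lower. Called were 65.6% of the carboxylesterase list, 58.8% of the P450 list and 71.4% of the transferase list, beside 54.3% of all tested genes. Cyp2b13, a female-specific P450, reached 110.1 CPM in C57BL/6J and held 1 count in CAST/EiJ, a ratio of 12262 (exact 95% Poisson interval 2201 to 484320, counting error only).

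The taste receptor subunit Tas1r1 was at most 0.297 CPM in C57BL/6J and between 25.5 and 141 CPM in CAST/EiJ (9.15 ± 0.54), and the adhesion molecule Ceacam2 at most 0.272 CPM and between 54.0 and 73.3 CPM (9.04 ± 0.21). Mug4-ps, a murinoglobulin pseudogene with close copies, had the highest value of all named genes (10.91 ± 0.32). Other genes at the extremes belong to families with near-identical copies, and their sums differed far less. Rpl9-ps6, a ribosomal protein pseudogene, ran from 124 to 159 CPM in C57BL/6J and to at most 0.0619 CPM in CAST/EiJ, yet the sum of Rpl9 and this copy had means of 149 CPM and 154 CPM. Rpl19-ps11, Rpl17-ps8 (-8.26 ± 0.41) and Rpl27-ps3 (-8.22 ± 0.33) were likewise near 0 in CAST/EiJ, while the sums with their parent genes were 1.09, 1.13 and 1.13 times as high there as in C57BL/6J. Rps13-ps1 was higher in CAST/EiJ (8.18 ± 0.28), with a sum 1.08 times as high. Eno1b, a retrocopy of enolase, was higher too (10.17 ± 0.25), with a sum 1.41 times as high. By contrast the sum of Apol9a and Apol9b stayed far apart at 99.5 ± 34.8 CPM (SD, n = 8) in C57BL/6J and 0.848 ± 0.382 CPM (SD, n = 7) in CAST/EiJ, as did the 3 Tmem254 genes at 209 ± 27.0 CPM and 21.6 ± 7.27 CPM.

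Several other single genes differed by large factors. Smpd3, a neutral sphingomyelinase, was at 0.245 to 0.929 CPM in C57BL/6J and at 9.11 to 33.4 CPM in CAST/EiJ (5.22 ± 0.33, adjusted p = 8.06e-09). Pls1, an actin-bundling plastin, was 21.5-fold higher (4.43 ± 0.31), and Nnmt, which methylates nicotinamide, 6.41-fold higher (2.68 ± 0.26). Rarres1, a retinoic acid responder, was between 7.58 and 37.1 CPM in C57BL/6J and at most 0.0978 CPM in CAST/EiJ (-8.75 ± 0.49, adjusted p = 1.41e-09). Ddah1, which breaks down methylarginines, was 1.98-fold lower (-0.98 ± 0.09, adjusted p = 6.31e-08). Amy2a4, a pancreatic amylase, was called lower (-10.95 ± 2.88, adjusted p = 0.00615), but C57BL/6J values ran from 0 to 88.8 CPM with a median of 0.0324 CPM. It was at 45.2 and 88.8 CPM in C57BL/6J M replicates 2 and 3, the libraries with Cpa1, and at most 0.477 CPM in any other library. It was tested in 12 of the 15 fits that left out a library, and the call was lost without CAST/EiJ M replicate 2. The call was also lost with the clock score and with limma. Rgs4, a regulator of G protein signalling, was 6.56-fold higher (2.71 ± 0.27), and Vwf, the von Willebrand factor of endothelium, 1.63-fold higher (0.71 ± 0.14). Hao2, a hydroxyacid oxidase, was lower (-3.96 ± 0.58, adjusted p = 6.08e-05), and the difference lay in F libraries, with 32.0 to 62.4 CPM in C57BL/6J and 1.01 to 4.01 CPM in CAST/EiJ. In M libraries no value of either strain exceeded 0.212 CPM. With the clock score the call was lost (-0.77, adjusted p = 0.757). The scores of the strains did not overlap in F libraries, so that fit cannot separate score from strain for this gene. The acetylcholine receptor subunit Chrna2 (0.47 ± 0.56) and the transcription factor Foxq1 (-0.53 ± 0.38) did not pass the test, with adjusted p of 0.503 and 0.261. Leptin receptor (Lepr), which varied from 14.1 to 130 CPM in C57BL/6J and from 8.48 to 270 CPM in CAST/EiJ, did not pass the test (0.09 ± 0.35, adjusted p = 0.843).

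The strain difference itself differed between F and M libraries for 427 genes (2.73%), by the test of the interaction. For 253 it was more positive in M and for 174 more negative, and 184 had opposite signs in the sexes. Nat8, an acetyltransferase of liver and kidney, averaged 0.102 CPM in F and 7.06 CPM in M libraries of C57BL/6J, while CAST/EiJ had 23.4 and 27.8 CPM, an interaction of -5.80 on the log2 scale (adjusted p = 1.18e-05). Echdc2, an enoyl-CoA hydratase relative, averaged 96.7 CPM in F and 140 CPM in M libraries of C57BL/6J and 39.4 and 133 CPM in those of CAST/EiJ. Pla2g16, a phospholipase, was higher in both sexes, by 1.13 in F and 2.75 in M on the log2 scale (interaction adjusted p = 4.58e-05). Fras1, an extracellular matrix protein, was at -0.63 in F and 2.76 in M (interaction adjusted p = 0.00988). Acnat1, an acyltransferase that conjugates fatty acids, had CAST/EiJ means of 73.4 CPM in F and 11.4 CPM in M, against 61.1 and 49.8 CPM in C57BL/6J (interaction -2.40, adjusted p = 4.67e-05). Xist, the RNA of the inactive X, was at 0.218 CPM in C57BL/6J M and 3.50 CPM in CAST/EiJ M libraries, far under the F means of 975 and 1034 CPM. The count of interactions was 223 without CAST/EiJ M replicate 2.

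On 44% fat the same strains were compared in 16 other libraries, 8 per strain by title. There 8608 of 15497 tested genes (55.5%) were called. Both diets called 6926 genes with the same sign, which is 81.5% of the 10% fat list and 80.5% of the 44% fat list, and 2 genes with opposite signs. The interferon list had 36 lower genes of 40 on 44% fat beside 33 on 10% fat, the GTPase list 18 of 20 beside 16, and the Kupffer cell list 15 of 17 beside 16. Cholesterol synthesis had 17 lower of 21 beside 10, and the urea cycle and amino acid list 20 higher of 36 beside 27. Irf7 had a log2 fold change of -3.98 on 44% fat beside -3.61, Mx2 2.85 beside 3.17, Cyp7b1 4.26 beside 4.17, and Fdps -3.14 beside -1.81.

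The difference between the diets was tested over 31 libraries, and 5 of 16271 genes (0.0307%) passed, with 1216 at an unadjusted p under 0.05 and 27 called by DESeq2. They were Tmem97, a sterol-regulated membrane protein, together with Btnl9, Tceal8, Tstd1 and the predicted gene Gm20775, of which all but Tmem97 fell outside the naming rule and are named because they are few. Tmem97 had a log2 fold change of -0.20 on 10% fat and of -1.02 on 44% fat, a difference of -0.80. Hamp (-4.31 and -9.68), Smpd3 (5.22 and 3.34) and Fdps had unlike values on the diets, but their differences did not pass that test.

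**Figure D5:**
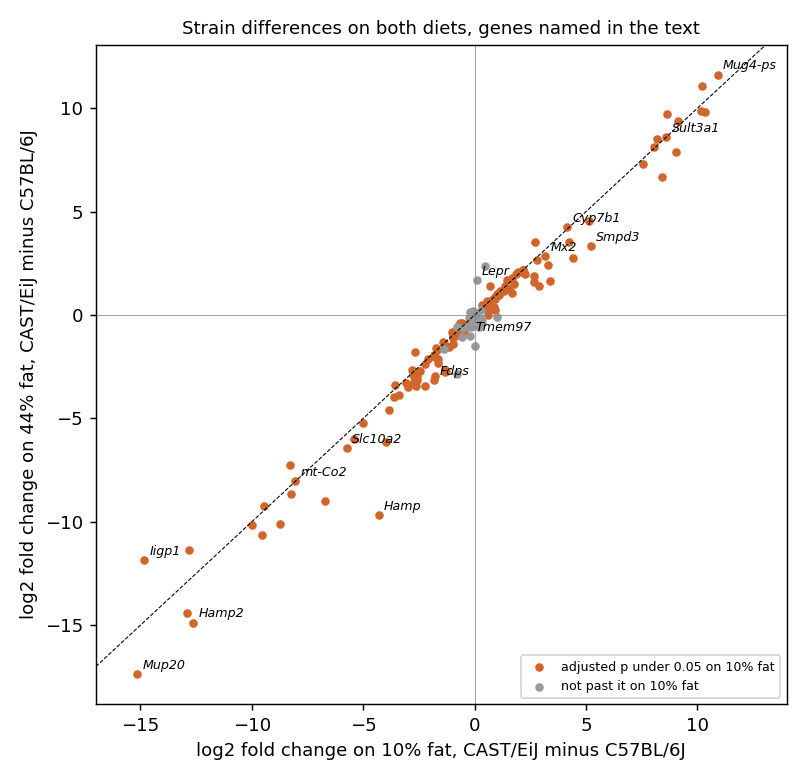
Log2 fold change, CAST/EiJ minus C57BL/6J, on 10% fat (horizontal) and on 44% fat (vertical) for the genes named in the text that were tested on both diets, with the line of equal values dashed. The genes were picked for their values on 10% fat or from the lists, and most lie near the line, with Hamp below it.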

How the data were processed

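Poly(A) RNA of mouse liver was sequenced as paired reads, per the labels' protocols. The authors deposited a table of estimated counts per gene and log2-scale values after variance stabilization. GRCm38 and DESeq2 are named in the submitters' processing notes with no role. Not given in the sources used here are the aligner, counter, strand use, annotation release and any strain-specific genome. Of the deposited values 20.3% were not whole (tolerance 1e-06), and counts were rounded to whole numbers.

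Genes were filtered with filterByExpr over the 4 strain and sex groups, scaled by TMM and tested with edgeR 4.0.16 (R 4.3.3; robust quasi-likelihood F test, sex plus strain, 12 residual degrees of freedom, Benjamini-Hochberg adjustment over all tested genes, threshold 0.05). CPM are TMM-scaled, and SE is the log2 fold change divided by the root of F. Interactions of strain with sex and diet were tested in the same way. The fit was also run on simulated counts with planted differences, with the outcome not given here. Such counts hold no effect of read placement or collection time. Alternatives were DESeq2 1.42.0, limma 3.58.1 on the deposited log2 values, other scalings and filters, each sex or identifier run alone, covariates, and each library left out. Total counts per library were 30585816 to 46605770, and no replicate pair agreed within sampling noise.

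Named were the 12 highest and 12 lowest log2 fold changes of eligible genes (average of at least 3 log2 CPM, an unshared symbol, not a predicted gene), the 6 smallest p of each interaction, up to 4 called members of each of 47 lists, a hand-picked set of genes and other list members as examples. The members and lists were chosen with earlier results of these data known. Promoters are from RefSeq (GRCm38.p6).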

Additional observations from a re-analysis of the deposited data

Results flagged for a closer look

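In groups of 4 libraries, a library was marked where its gap to the nearest other, divided by the group's range, exceeded Dixon's 95% critical value. Chance alone marks about 1 in 20 groups. Over the named genes 20 of 361 groups checked were marked, which is near that rate, so any mark below may be chance. CAST/EiJ F replicate 2 stood apart for Irf7 at 4.86 CPM (others 2.18 to 2.48), Usp2 at 53.4 CPM (others 19 to 24.1), Orm1 at 197 CPM (others 72.7 to 88.1), Chrna2 at 8.83 CPM (others 0.76 to 2.05) and mt-Nd5 at 5280 CPM (others 6540 to 6650). CAST/EiJ F replicate 4 stood apart for the clock gene Arntl at 17.3 CPM (others 6.41 to 6.91) and for Ces2b at 120 CPM (others all near 127). CAST/EiJ F replicate 3 had 4.42 CPM of the acinar gene Cpa1, where the others had at most 0.293 CPM.

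Among C57BL/6J M libraries, replicate 2 was high for Bst2 at 104 CPM (others 60.2 to 66.9), Adgre1 at 24.1 CPM (others 16.4 to 17.6) and Hp at 2040 CPM (others 1610 to 1660). Replicate 4 was high for mt-Co2 at 2700 CPM (others 1550 to 1670), mt-Atp6 at 2590 CPM (others 1380 to 1570) and Moxd1 at 11.6 CPM (others at most 0.818). Among C57BL/6J F libraries, replicate 2 was high for Pmvk at 44.8 CPM (others 34.5 to 35.6) and Scd1 at 19900 CPM (others 9960 to 11300). Replicate 3 was low for Cd5l at 76.7 CPM (others 102 to 106) and high for Mup20 at 84.8 CPM (others 49.6 to 53.2). Dbp was at 2.24 CPM in replicate 4 (others 1.08 to 1.24) and Rpl19-ps11 at 164 CPM in replicate 1 (others 173 to 175). Whether anything but chance set these libraries apart was not tested.

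For 14 named genes the strain difference itself differed between the sexes by the interaction test, given here as M minus F on the log2 scale. It was more positive in M for H2-Q7 (1.06), Cyp2c70 (1.88), Ugt1a10 (2.53), Fras1 (3.38), Echdc2 (1.22), Pla2g16 (1.61), Xist (3.91) and Sult3a1 (10.8). It was more negative in M for Slc10a2 (-4.83), Oat (-1.14), Asl (-0.894), Nat8 (-5.8), Acnat1 (-2.4) and Mup20 (-10.4). The values of Sult3a1 and Mup20 rest on groups near 0 and depend on the fit. Between the diets Tmem97 differed, by -0.805 from 10% to 44% fat.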

How the results depend on the processing

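Requiring a fold of at least 1.5 left 3125 called genes (1426 higher, 1699 lower in CAST/EiJ), and the clock score as a covariate left 5364 (2754 and 2610). F libraries alone gave 6537 called genes (3231 and 3306), and M libraries alone gave 5700 (2804 and 2896). Within identifier runs 1, 2 and 3 alone, with 4 to 6 libraries each, 2052 (1021 and 1031), 2759 (1384 and 1375) and 3792 (1756 and 2036) were called. Leaving out each library in turn gave 8037 to 8439. The strain by sex count was 856 with DESeq2 and 223 (without CAST/EiJ M replicate 2) to 547 (without CAST/EiJ F replicate 1) when 1 library was left out, with 265 without C57BL/6J F replicate 1 and 272 without C57BL/6J M replicate 3. The strain by diet count was 27 with DESeq2, 3 with the identifier run as a covariate, and 2 to 7 when 1 library was left out. It was 2 without CAST/EiJ M replicate 1, CAST/EiJ F replicate 4 or C57BL/6J M replicate 2 or 3, 3 without C57BL/6J M replicate 1 or C57BL/6J F replicate 3, and 7 without CAST/EiJ F replicate 2. Apart from construction (fewer libraries, a stricter test, a covariate that partly follows strain), the cause was not tested.

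Of 207 named or listed genes called, 206 kept their direction in every setting that tested them (23 to 31 settings a gene), the exception being Sox9, at 0.0542 in run 3 alone, and 197 were called in every fit that left out 1 library. No paired analysis was possible because the labels give no replicate numbers. Genes under about 1 CPM rest on few counts, and floors and Poisson intervals cover counting error only.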
